A study of Mus musculus with 30 samples.

Results

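Heart tissue of mice given an F11 vector was compared with heart tissue of mice given a GFP vector, across every gene whose counts passed a filter on low values. The members are 13 heart libraries, chosen by tissue from the 29 libraries in the deposited table: 6 from the GFP group (L1, L2, L5, L6, L8 and L9) and 7 from the F11 group (L31, L33, L35, L36, L38, L39 and L40). All were from male C57BL/6J mice that received adeno-associated virus of serotype 8 (AAV8), carrying either GFP or F11, and then 7 weeks of high-fat feeding combined with l-NAME. Hearts were taken at an age of 15 weeks. The labels name 1 further GFP heart library, L10, which was not analysed here. There was no group without vector and none on a normal diet, so each difference is between vectors in animals under the same diet and drug.

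F11 encodes coagulation factor XI, a protease zymogen that hepatocytes secrete into plasma and that acts in the contact arm of blood clotting. AAV8 given systemically is known for its strong preference for liver, so a coding sequence carried by it is expected to be expressed mainly there. l-NAME blocks nitric oxide synthases, and its combination with a high-fat diet is widely used in mice to model heart failure in which the ejection fraction is preserved. The series asks which genes of heart and white fat respond to factor XI, and the heart libraries address it for the heart.

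The circadian clock needs a word of background, because the 3 genes with the lowest p between these groups, Usp2, Ciart and Arntl, belong to it. CLOCK and BMAL1 (the product of Arntl) bind E-box DNA and drive Per, Cry, Dbp and Ciart, whose products in turn hold them back, so that the activators and their targets peak at opposite hours. The labels used here give no hour of collection, and its part in the differences described was not tested. Clock genes are given below as context only.

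Each library held 25.75 to 33.02 (in units of 1e6) estimated counts, and 33.58 ± 1.13% (SD, n = 6) of the counts in the GFP group and 33.19 ± 0.721% (SD, n = 7) in the F11 group came from the mitochondrial genome. Neither the depth (difference 1.06 in the same unit, exact permutation test over 1716 splits, two-sided p = 0.334) nor the mitochondrial share (difference -0.390 percentage points, exact permutation p = 0.469) differed beyond the spread between libraries. Whether libraries come from different mice is not stated in the labels, and the spread that p-values rest on is that between libraries. Library numbers do not overlap between the vectors, and anything that follows the number cannot be told apart from the vector. Several libraries stood apart in transcripts of other tissues. GFP library L8 held 0.383 CPM (scaled counts per 1e6 counts) of the atrial light chain Myl7 against 25.9 to 330 in the other 12 hearts that were analysed, GFP libraries L1 and L5 held 6.26 and 4.45 CPM of the brown fat transcript Ucp1, GFP library L2 held 116 CPM of albumin (Alb), and GFP library L8 and F11 library L40 were rich in alpha-globin (Hba-a1, 706 and 607 CPM). The scaling of CPM adjusts the total of each library for composition and does not remove transcripts of other tissues. The F11 transcript itself had 13 counts over the 6 GFP hearts and 3 over the 7 F11 hearts. Of the GFP hearts, only L2 (0.351 CPM), the library with albumin, and L1 (0.0623 CPM) held any. The F11 transcript in heart thus gives no sign of which vector an animal received. The targeted gene therefore could not check the labels in this tissue.

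The vectors differed in a small share of the heart transcriptome. Most of the genes that differed lay outside the clock lists, which hold only 14 and 5 genes and so could take in few. Here and below, outside the clock means outside these lists, and genes beyond them may still follow the clock. Of 14684 genes tested, 128 (0.872%) passed an adjusted p of 0.05 in the edgeR quasi-likelihood test: 76 (0.518%) were higher with F11 and 52 (0.354%) were lower. Clock lists held 11 of them, 8 higher and 3 lower, among them Arntl at 9.21 to 13.1 CPM (median 11.2) with GFP and 2.403 to 5.09 CPM (median 3.82) with F11. The remaining 117 genes, 68 higher and 49 lower, were mostly protein coding (113 of 117). At an unadjusted p under 0.05 the same test listed 1831 genes. The median log2 fold change over all genes tested was -0.0056, with 47.5% of genes positive.

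Most differences outside the clock were below 1.5-fold. The median log2 fold change was 0.33 among the 68 higher genes and -0.43 among the 49 lower genes, against a median absolute value of 0.66 for the clock genes that passed. Changes beyond 1.5-fold were found in 18 genes, 9 in each direction, and beyond 2-fold in 5: Hif3a and Zbtb16 were higher, and Spon2, Fam124b and Mcpt4 were lower. In each of the 117 genes, the 7 F11 values were either all above or all below the GFP median. The test chose these genes, which favours such a pattern, and its share over all genes tested is not given here. The CPM ranges of the groups did not overlap at all in 91 of the 117 genes, 52 higher and 39 lower. Over all genes tested, 158 (1.08%) had ranges that did not overlap, 92 (0.627%) with F11 above and 66 (0.449%) with F11 below.

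**Figure D1:**
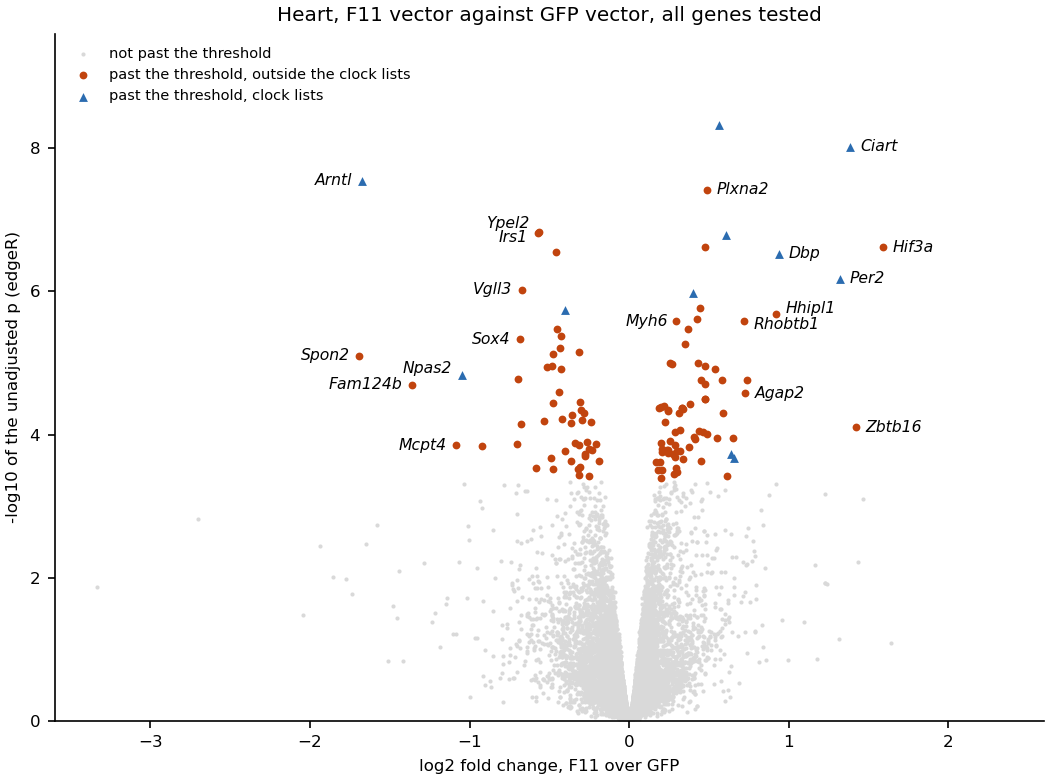
Log2 fold change of F11 over GFP (horizontal axis) against -log10 of the unadjusted p from edgeR (vertical axis) for the 14684 heart genes tested. Orange circles are the 117 genes past the adjusted threshold outside the clock lists, blue triangles are the 11 clock genes past it, and Hif3a, at a log2 change of 1.59, lies farthest to the right among all of them.

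The counts moved with the libraries kept and with the fit. Leaving out 1 library at a time gave 87 to 179 genes, and the highest count, with 119 higher and 60 lower, came without F11 library L40. Without GFP libraries L1, L5 and L8 together, a choice made after seeing the data, 15 genes passed, 9 higher and 6 lower, and 14 of them were among the 128. That fit had 3 GFP libraries. Outside the clock it left 9 genes past the threshold: Plxna2, Mid1ip1, Hif3a, Rhobtb1 and Myh6 higher, and Ypel2, Irs1, Dtx4 and Rnf144a lower. All 128 genes kept their sign in it, with a median absolute log2 fold change of 0.34 against 0.40 in the full comparison. Without the libraries rich in globin, L8 and L40, 150 genes passed. Several genes described below lost the call when 1 library was left out. Their highest adjusted p were 0.103 for Rhoj without L1 (called in 3 of the 13 fits), 0.0741 for Ube2h without L5, 0.061 for Tgm2 without L6 and 0.0591 for Mcpt4 without L1. For others they were 0.0797 for Dgat2, 0.0785 for Vcl, 0.0628 for Meis1, 0.0621 for Cdo1, 0.0571 for Pgf and for Vgll4 and 0.0562 for Adam19, all without L5. They were 0.0744 for Mmp14 without L1, 0.0702 for Arhgap18 without L35 and 0.0518 for Adora1 without L9. Most of these calls were lost in more than 1 fit. Of the 13 fits, Vcl lost the call in 8, Dgat2 and Mmp14 in 7, and Meis1 and Arhgap18 in 6. Vgll4 and Adam19 lost it in 5, Cdo1 in 4, Pgf in 3 and Adora1 in 1. Ube2h kept the call in 8 of the 13 fits, and Tgm2 and Mcpt4 in 9. With all 13 libraries, DESeq2 called 377 genes (2.57%) and limma voom with sample quality weights 196 (1.33%). A fit over all 29 libraries of heart and fat called 30 (0.182%), of which 24 were among the 128.

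The genes with the lowest p among those higher with F11 are described first. Plxna2 (chr1:194618218-194816869, GRCm38), a plexin receptor for semaphorins, had the lowest p outside the clock: levels were 47.9 to 58.4 CPM (median 52.1) with GFP and 67.2 to 79.8 CPM (median 73.4) with F11, a log2 change of 0.49 ± 0.0525 (SE, adjusted p = 0.000139). The groups did not overlap, and the lowest F11 library was L31. Hif3a (chr7:17031507-17062427), the third alpha subunit of the hypoxia-inducible factors, had the largest fold increase of all genes that passed: 0.966, 1.02, 0.742, 0.781, 0.8004 and 0.834 CPM in GFP libraries L1, L2, L5, L6, L8 and L9, and 1.61, 2.99, 3.71, 1.74, 2.74, 2.23 and 3.18 CPM in F11 libraries L31, L33, L35, L36, L38, L39 and L40. It was 3.02-fold higher, with a log2 change of 1.59 ± 0.195 (SE, adjusted p = 0.000396), and again L31 was the lowest F11 library. Hhipl1, a secreted relative of the hedgehog-interacting protein, rose 1.89-fold from 2.48 ± 0.373 CPM (SD) to 4.701 ± 0.893 CPM (adjusted p = 0.0018). Rhobtb1, an atypical small GTPase that serves cullin ubiquitin ligases as an adaptor, rose 1.65-fold, from 83.8 to 122 CPM (median 110.0) to 150.5 to 228 CPM (median 176), with F11 library L33 far above the others.

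The other 11 leading higher genes changed by less than Hif3a, Hhipl1 and Rhobtb1. Myh6 (chr14:54941921-54966927), the alpha myosin heavy chain that forms most of the thick filament of adult mouse ventricle, stood at 22380 to 25520 CPM (median 22590) with GFP and 26720 to 30790 CPM (median 28640) with F11. Its log2 fold change was 0.30 ± 0.0432 (SE, adjusted p = 0.00192), and the lowest F11 library lay above the highest GFP library, L1. Mid1ip1, which promotes the activity of acetyl-CoA carboxylase, rose by 0.48 ± 0.0584 (SE, adjusted p = 0.000396) on the log2 scale, and Pdxk, the kinase that makes active vitamin B6, by 0.37 ± 0.0554 (SE, adjusted p = 0.00224). Timp3, an inhibitor of matrix metalloproteinases, rose from 179.8 ± 14.3 CPM (SD) to 262 ± 38.2 CPM. Trib1, a pseudokinase that brings substrates to the ubiquitin ligase COP1, had a log2 change of 0.48, and Ncoa3, a coactivator of nuclear receptors, one of 0.27. Mn1, a transcriptional coregulator, rose by 0.43 on the log2 scale. Genes of the cytoskeleton and membrane traffic were in the same range: Wipf3, a partner of the actin regulator WASP, at 0.44, Asap1, which switches off Arf GTPases, at 0.26, and the FERM-domain gene Frmd4b at 0.35. Ammecr1 completed the set at 0.43. In all 15 leading higher genes the CPM ranges of the groups were apart.

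Irs1, Ypel2 and Spon2 were among the leading genes lower with F11. Irs1 (chr1:82233101-82291416), the docking protein that passes the signal of the insulin receptor to PI3-kinase, stood at 26.5 to 34.2 CPM (median 30) with GFP and 17.2 to 23.02 CPM (median 20.3) with F11. It was 1.49-fold lower, with a log2 change of -0.57 ± 0.0678 (SE, adjusted p = 0.000346), and no F11 library reached the lowest GFP library. Ypel2, a member of the yippee-like family, changed by nearly the same amount, from 21.3 to 25.6 CPM (median 24.01) to 13.7 to 18.7 CPM (median 16.03) (log2 change -0.56, adjusted p = 0.000346). Spon2 (chr5:33198184-33218455), a secreted matrix protein, had the largest fold decrease of all genes that passed: 3.49, 3.602, 3.59, 2.11, 2.33 and 3.54 CPM in GFP libraries L1, L2, L5, L6, L8 and L9 against 1.65, 0.412, 1.53, 0.889, 0.773, 0.865 and 0.612 CPM in the F11 libraries in the order L31 to L40. Its log2 fold change was -1.69 ± 0.257 (SE, adjusted p = 0.00401). GFP libraries L6 and L8 and F11 libraries L31 and L35 lay closest to the other group.

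Sox4, a developmental transcription factor, stood at 33.9 ± 3.64 CPM (SD) with GFP and 21.1 ± 3.29 CPM with F11, 1.61-fold lower (adjusted p = 0.00286). Vgll3, a cofactor of the TEAD factors at the end of the Hippo pathway, fell to a like extent, 1.59-fold (adjusted p = 0.00107). Hdac9, a class IIa histone deacetylase that binds MEF2 factors, had a log2 change of -0.48, and the zinc-finger genes Zfp608 and Zfp395 had -0.45 and -0.43. Mdfic, a regulator with a MyoD-family inhibitor domain, had -0.31. The ubiquitin ligase genes Dtx4 and Rnf144a had -0.46 and -0.43. Arhgap28, which switches off small GTPases, was 1.62-fold lower. At the cell surface, the adhesion molecule gene Clmp had a log2 change of -0.48, the immunoglobulin-domain gene Vstm4 one of -0.43, and Itgb6, the beta-6 integrin subunit that helps to activate latent TGF-beta, one of -0.51. Itgb6 was the only one of these 15 leading lower genes whose groups overlapped: GFP library L2 at 14.4 CPM lay below F11 library L39 at 14.8 CPM.

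**Figure D2:**
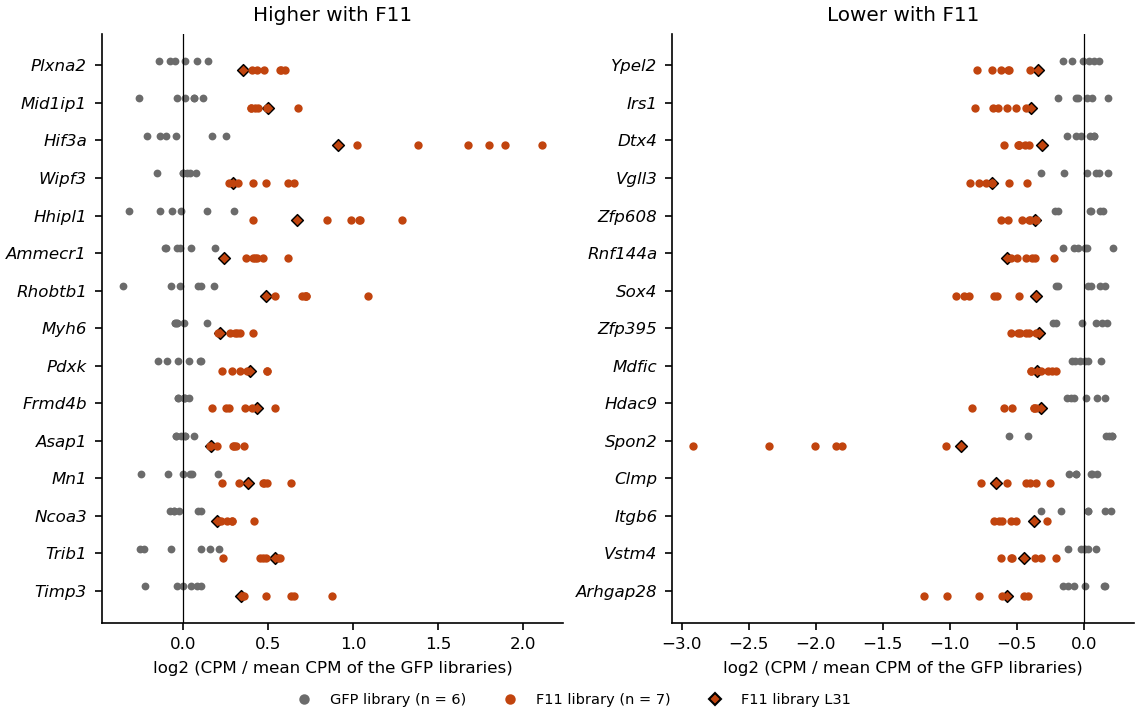
Level of the 15 higher (left) and 15 lower (right) genes with the lowest p outside the clock lists, as log2 of the CPM in each library over the mean CPM of the 6 GFP libraries. Grey points are GFP libraries, orange points F11 libraries and diamonds F11 library L31, and the clouds are apart for every gene shown except Itgb6.

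The stretches of promoter below are shown because they hold, within 250 bases before and 50 after an annotated start site, the letters CACGTG (the E-box bound by CLOCK and BMAL1) or ACANNNTGT (the core of the glucocorticoid response element), in 6 of the named genes with the lowest p. They are from the RefSeq promoter table (GRCm38.p6), 5′ to 3′ along the strand of the gene, with the matching letters in capitals.

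Irs1, chr1:82291519-82291584, minus strand: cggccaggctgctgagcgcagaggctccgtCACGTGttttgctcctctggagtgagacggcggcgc

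Mid1ip1, chrX:10717264-10717332, plus strand: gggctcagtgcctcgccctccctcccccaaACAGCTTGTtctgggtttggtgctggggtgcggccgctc

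Rhobtb1, chr10:69212560-69212625, plus strand: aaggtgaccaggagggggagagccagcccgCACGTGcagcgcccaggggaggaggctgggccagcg

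Pdxk, chr10:78465093-78465158, minus strand: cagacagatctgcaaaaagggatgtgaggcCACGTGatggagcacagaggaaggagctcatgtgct

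Frmd4b, chr6:97459482-97459536, minus strand: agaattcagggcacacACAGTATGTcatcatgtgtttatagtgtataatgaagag

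Slc41a3, chr6:90619003-90619068, plus strand: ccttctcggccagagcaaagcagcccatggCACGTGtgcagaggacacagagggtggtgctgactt

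No stretch overlaps an exon of the GENCODE annotation of the same build. Those of Irs1 and Pdxk lie outside any annotated gene, and those of Mid1ip1, Rhobtb1, Frmd4b and Slc41a3 lie within the bounds of the gene itself, upstream of an inner start site. The stretch of Rhobtb1 also lies wholly within the bounds of a second gene, A930033H14Rik. Both strands were searched. Irs1 and Slc41a3 were lower with F11 and hold the E-box letters, and so do Rhobtb1 and Pdxk, which were higher. The E-box letters were held by 9 of 49 higher genes with a promoter in the table (18.4%), by 6 of 34 lower genes (17.6%) and by 11.3% of the 10915 tested genes with a promoter. Counted by promoter, 7.15% of the 32851 in the table held them. With the window shortened to 100 bases before the start, the shares were 10.2%, 5.88% and 7.15% for the higher, the lower and all tested genes. The glucocorticoid core was held by 6.12% of higher, 2.94% of lower and 5.4% of tested genes. TTANGTAA, the D-box bound by DBP, TEF and HLF, was held by 0 of 49 higher and 1 of 34 lower genes, against 1.86% of tested genes. TAGGTCA, the element bound by the ROR and REV-ERB receptors, was held by 0% of higher, 5.88% of lower and 2.19% of tested genes, TGACGTCA, the cAMP response element, by 2.04%, 5.88% and 3.33%, and ACGTG, the hypoxia response core, which lies within the E-box letters, by 34.7%, 35.3% and 28.2%. A match of letters is a description and not a bound site.

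Among contractile genes, Myh6 and Tcap rose. Of 26 sarcomere and Z-disc genes tested, 25 were positive, against 47.5% of all genes tested, and the median log2 fold change was 0.15. The test was passed by 2 (7.69%, against 0.872% of all genes), Myh6, described above, and Tcap. All lists were drawn up with earlier results of these data known, so such a share does not test a list. For each list below, the share over all genes is the same 0.872%. Tcap, which caps titin at the Z-disc, stood at 395 to 516 CPM (median 452) with GFP and 530.4 to 716 CPM (median 577) with F11 (log2 change 0.45 ± 0.0754 (SE, adjusted p = 0.00601)). The lowest F11 library, L36, lay above the highest GFP library, L6. Further members came near the threshold without passing it, the actin crosslinker Actn2 at 0.20 (adjusted p = 0.0614) and desmin (Des) at 0.14 (adjusted p = 0.107). The summed level of ventricular cardiomyocyte markers was 48620 to 51840 CPM (median 49410) with GFP and 54250 to 64550 CPM (median 58380) with F11. Within that sum Myh6 alone had medians of 22590 CPM with GFP and 28640 CPM with F11. Of the 10 genes 9 were positive. In bulk tissue, fewer cells of a type and less RNA per cell cannot be told apart. Myh6 lies next to its close relative Myh7 on chromosome 14, and the counting divides shared reads between them by estimation. Myh7 had a log2 change of 0.78 without passing the test (adjusted p = 0.119).

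Other genes of the cardiomyocyte changed singly. In the stress list, 10 of 13 genes were positive with a median of 0.32, and 1 passed: Hspb7, a small heat shock protein of heart muscle, at 1390 to 1730 CPM (median 1510) with GFP and 1754 to 2224 CPM (median 1873) with F11 (log2 change 0.32 ± 0.0591 (SE, adjusted p = 0.0118)). The natriuretic peptide genes Nppa and Nppb had log2 changes of -0.31 and 0.10 with adjusted p of 0.917 and 0.928, and levels of Nppa ran from 34.1 CPM in L8 to 1525 CPM in L1. Acta1, skeletal alpha-actin, reached 1194 CPM in F11 library L35 and 405 CPM or less in the other 12. Vcl, which encodes vinculin, a link between actin and cell junctions, rose by 0.21 on the log2 scale, and F11 library L40, at 115 CPM, overlapped the GFP libraries. None of 25 calcium-handling genes passed (18 positive, median 0.03), nor did any of 20 potassium channel genes (12 positive, median 0.03). The lowest adjusted p among these were those of Casq1 (log2 change 0.44, adjusted p = 0.292) and Kcnn2 (0.20, adjusted p = 0.144).

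Fuel-use genes differed at single enzymes, while genes of the mitochondrial chain and of fatty acid oxidation gave no call. None of 32 nuclear-encoded OXPHOS subunits (median -0.02, 12 positive), 13 mitochondrial genome transcripts (median 0.01), 19 TCA cycle genes (median 0.01) or 34 genes of fatty acid uptake and oxidation (median -0.01, 11 positive) passed. Cycs, cytochrome c, had the lowest p of the OXPHOS list, at 0.07 (adjusted p = 0.575), and Cpt1b, the muscle form of the enzyme that admits fatty acids to mitochondria, that of the oxidation list, at 0.09 (adjusted p = 0.356). Of 31 glycolysis, glycogen and glucose uptake genes 26 were positive, with a median of 0.08, and 1 passed. This was Hk1, a hexokinase, at 104 to 115 CPM (median 111) with GFP and 118 to 143.3 CPM (median 135.6) with F11 (log2 change 0.25 ± 0.0459 (SE, adjusted p = 0.0114)), with the groups apart. Hk2, the hexokinase of striated muscle, had a log2 change of 0.23 and an adjusted p of 0.0662.

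Lipid and amino acid genes added 3 calls, 3.7% of the triglyceride list and 8% of the amino acid list, against 0.872% of all genes. Dgat2, which completes triglyceride synthesis, was the 1 gene of 27 in the triglyceride list to pass, at 185 to 223 CPM (median 199) with GFP and 213 to 273 CPM (median 244) with F11 (log2 change 0.27, adjusted p = 0.026). F11 library L38 lay within the GFP range. None of 21 sterol genes passed, and 15 of them were negative (median -0.07), with Stard4, a sterol transporter, nearest to the threshold at -0.36 (adjusted p = 0.0593). In the amino acid list of 25 genes, Prodh, which begins proline breakdown, was 1.39-fold higher (6.78 ± 1.04 CPM, SD, against 9.45 ± 0.664), and Cdo1, which begins cysteine breakdown to taurine, was 1.89-fold lower (3.23 ± 0.984 CPM, SD, against 1.702 ± 0.3598). Prodh shares its counts with an entry of identical values that has no symbol in the annotation used, and both entries are counted among the 76 higher genes. Cdo1 is also a gene of fat, and 7 of 10 adipocyte markers had negative changes, none past the threshold, as given below; their part in the change of Cdo1 was not tested.

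Among 27 genes of insulin and IGF signalling, 1 called gene fell, Irs1, and 1 rose, Trib1 (7.41%, against 0.872% of all genes). The list median was -0.03 with 12 genes positive. Irs2, the other main docking protein, stood at 14.2 to 26.7 CPM (median 19.3) with GFP and 9.18 to 24.4 CPM (median 19.3) with F11 (adjusted p = 0.727), and the insulin receptor, Insr, had a log2 change of 0.06 (adjusted p = 0.823). Pik3r1, the regulatory subunit of PI3-kinase, stood at 116, 111, 118, 112, 125 and 95.2 CPM in the GFP libraries and at 119.5, 240.4, 172, 147.5, 159.7, 157 and 172 CPM in the F11 libraries. Only L31 lay within the GFP range, and the adjusted p was 0.0614 at a log2 change of 0.56.

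Targets of the glucocorticoid receptor included the 2 genes past the threshold with the largest fold increases, Hif3a and Zbtb16. Of 24 listed targets these 2 passed (8.33%, against 0.872% of all genes). That list too was made with earlier results known, so the share does not test it. The list median was 0.16, and 14 genes were positive. Zbtb16 (chr9:48654297-48836222), a transcription factor that glucocorticoids induce in many tissues, stood at 51.8, 43.5, 48.9, 37.2, 58.01 and 44.1 CPM in the GFP libraries and at 57.6, 186, 152, 108, 100.3, 126 and 160.4 CPM in the F11 libraries. It was 2.68-fold higher (log2 change 1.42 ± 0.239 (SE, adjusted p = 0.0161)), with L31 inside the GFP range and the other 6 F11 libraries far above it. Fkbp5, the immunophilin that responds most readily to glucocorticoids, was likewise lowest in L31 among the F11 libraries, at 12.1, 12.8, 10.9, 10.2, 12.5 and 9.74 CPM with GFP and 12.3, 52.8, 30.4, 16.9, 31.2, 26.4 and 49.9 CPM with F11. Its log2 fold change was 1.46, and it missed the threshold at an adjusted p of 0.0614. The target Tsc22d3 had a log2 change of 0.13 (adjusted p = 0.781) and Sgk1 one of -0.09 (adjusted p = 0.906). Nr3c2, the mineralocorticoid receptor, had 0.26 (adjusted p = 0.0593).

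Hif3a also belongs to the hypoxia list, in which it was the only one of 25 genes to pass. The oxygen-regulated subunits Epas1 and Hif1a had log2 changes of 0.19 (adjusted p = 0.0593) and -0.16 (adjusted p = 0.228). The list median was -0.01, with 11 genes positive. Adora1, the adenosine receptor that slows heart rate, was the 1 gene of 27 in the adrenergic and cAMP list to pass, at 9.31, 8.702, 9.49, 8.86, 8.25 and 7.84 CPM with GFP and 9.12, 16.2, 12.4, 10.7, 13.3, 13.8 and 14.2 CPM with F11 (log2 change 0.55, adjusted p = 0.0207). L31 again lay among the GFP libraries and the other 6 above them.

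**Figure D3:**
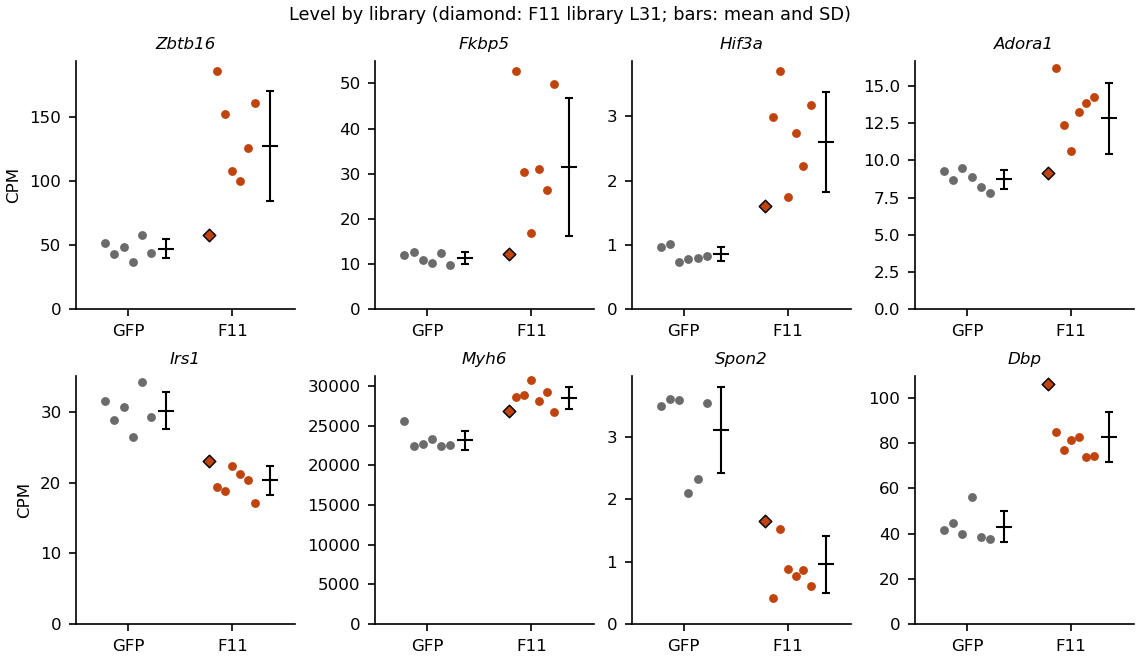
CPM of 8 genes in each GFP library (grey, n = 6) and each F11 library (orange, n = 7; diamond, L31), with bars for the mean and SD and axes that start at 0. L31 lies at the GFP level in Zbtb16, Fkbp5 and Adora1, and is the highest library in the clock output gene Dbp, at 106 CPM.

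The F11 libraries differed in how far they lay from GFP. Over the 66 distinct higher genes L31 was the F11 library nearest to GFP in 22, and over the 49 lower genes in 15. L36 was nearest in 18 of the higher genes, and L33 was the farthest from GFP in 37. The median log2 difference from the GFP mean over the higher genes was 0.265 in L31, 0.271 in L36 and 0.442 in L33, and over the lower genes it was -0.335 in L31, -0.334 in L39 and -0.402 in L40. For the clock genes that passed, taken in the direction of the group difference, the median log2 difference from the GFP mean was 1.03 in L31 and 0.511 to 0.937 in the other F11 libraries. These positions describe the genes chosen by the test and carry no test of their own. The first principal component of all tested genes held 24.8% of the variance and did not separate the vectors (GFP -21.6 to 24.3, F11 -14.9 to 11.5). The second, with 12.6%, did, at -17.9 to -1.85 for GFP and 4.75 to 9.22 for F11.

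Vascular growth factor genes included 2 that rose among 30 (6.67%, against 0.872% of all genes). Flt1, a receptor that captures VEGF-A and placental growth factor, stood at 108 to 136.4 CPM (median 120.0) with GFP and 130.4 to 179.5 CPM (median 152) with F11 (log2 change 0.32 ± 0.0629 (SE, adjusted p = 0.0171)), with L31 inside the GFP range. Pgf, placental growth factor itself, was 1.57-fold higher, at 2.02 to 2.87 CPM (median 2.45) and 2.78 to 4.74 CPM (median 3.999) (adjusted p = 0.0207), and L31 alone lay within the GFP range. Vegfa and its main signalling receptor Kdr had log2 changes of -0.12 (adjusted p = 0.5) and 0.02 (adjusted p = 0.953). Tek, the angiopoietin receptor, narrowly missed the threshold, at -0.17 with an adjusted p of 0.0514. Endothelial markers gave 10 positive genes of 18, a median of 0.01 and no call, with summed levels of 1470 to 1814 CPM with GFP and 1499 to 1817 CPM with F11. None of 21 nitric oxide and cGMP genes passed (median -0.05, 8 positive), in animals that all received an inhibitor of nitric oxide synthases. Nos3, the endothelial synthase, had a log2 change of 0.05 (adjusted p = 0.775) and Npr1, the receptor of the natriuretic peptides, -0.24 (adjusted p = 0.0894). None of 18 genes of the angiotensin, endothelin and natriuretic systems passed (median 0.05), and none of 20 coagulation and fibrinolysis genes did (median -0.04).

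Matrix genes changed at a few points on both sides of proteolysis. Among 34 matrix proteases and inhibitors, the inhibitor Timp3 rose and the proteases Adam19 and Mmp14 fell, 8.82% of the list against 0.872% of all genes. With members chosen when earlier results were known, that share does not test the list. Adam19 stood at 51.4 to 66.4 CPM (median 59.97) with GFP and 26.1 to 46.8 CPM (median 35.6) with F11 (1.63-fold lower, adjusted p = 0.0229), with the groups apart. Mmp14, the membrane-type metalloproteinase that activates MMP2, stood at 13.8 to 16.1 CPM (median 15.02) and 11.3 to 13.8 CPM (median 12.2), a narrower gap. Timp4, the inhibitor most typical of heart, had a log2 change of 0.83 and an adjusted p of 0.0774, with L31 inside the GFP range. In the list of 39 collagens and matrix proteins Spon2 was the 1 gene to pass (median 0.00 to 2 decimals), and Col1a1 had -0.06 (adjusted p = 0.862). The list did not hold Col5a3, a fibrillar collagen chain that passed, at -0.53 (adjusted p = 0.0141). Fibroblast markers were negative in 13 of 17 genes with a median of -0.06 and no call.

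No gene passed in the BMP and activin list (33 tested, 22 negative, median -0.10) or in the TGF-beta list (21 tested, 13 negative, median -0.04). Inhbb, a subunit of activin B, had the lowest p of the first, at -0.47 (adjusted p = 0.155), Bmp2 had -0.44 (adjusted p = 0.294), and Smad3, which carries the TGF-beta signal to the nucleus, had -0.22 (adjusted p = 0.207). In the Wnt and Hippo list of 32 genes, 2 fell (6.25%, against 0.872% of all genes) and 25 were negative. Those that fell were Vgll3 and its relative Vgll4, the latter at -0.34 (adjusted p = 0.0227). Yap1, the coactivator that competes with them for TEAD factors, had -0.17 (adjusted p = 0.0837). Among 37 hedgehog, semaphorin and guidance genes, Hhipl1 and Plxna2 rose (5.41%, against 0.872% of all genes), and the list median was 0.03.

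Regulators of small GTPases changed in both directions. Of 35 genes of actin-linked small GTPases and their regulators 5 passed (14.3%, against 0.872% of all genes), Rhobtb1 and Agap2 higher, and Arhgap28, Arhgap18 and Rhoj lower, with a list median of 0.00 to 2 decimals. Here as well the list was made with earlier results known, and the share does not test it. Agap2, a GTPase-activating protein for Arf that also binds PI3-kinase, was 1.66-fold higher, at 4.79 to 7.33 CPM (median 5.66) with GFP and 7.96 to 13.01 CPM (median 9.88) with F11. Arhgap18, which switches off such a GTPase, was 1.403-fold lower, at 18.4 to 24.8 CPM (median 21.7) and 12.1 to 18.02 CPM (median 16.2). Rhoj, an endothelial relative of CDC42 that falls outside the rule for named genes only by its rank in the list, had a log2 change of -0.25 (adjusted p = 0.0445).

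Of the remaining lists, several held a single call, 2.56% to 4.17% of their genes, against 0.872% of all genes. Cardiac transcription factors held 2 of 28 (7.14%), both lower: Sox4 and Meis1, a homeobox factor that restrains cardiomyocyte division, at -0.21 (adjusted p = 0.0229). Chromatin modifiers held 1 of 39, Hdac9, while its class relatives Hdac4 and Hdac5 had -0.01 and -0.09 (adjusted p = 0.975 and 0.466). Protein degradation and autophagy held 1 of 24, the ubiquitin ligase adaptor Fbxo30, at -0.28 (adjusted p = 0.0118). Cytokines and chemokines held 1 of 31, the membrane-bound chemokine Cxcl16, at -0.37 (adjusted p = 0.0143). Cell cycle genes held 1 of 26, Wee1, the kinase that delays mitosis, 1.501-fold higher, at 9.11 to 11.8 CPM (median 10.8) and 13.03 to 22.1 CPM (median 15.8). Wee1 is also known as an E-box target of the clock. Metal ion carriers held 1 of 25, the magnesium transporter gene Slc41a3, at 36.8 to 52.5 CPM (median 41.8) with GFP and 22.9 to 37.1 CPM (median 26.1) with F11 (1.597-fold lower, adjusted p = 0.0146), where F11 library L40 touched the GFP range.

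Lists with no call were those of interferon-stimulated genes (30 tested, 25 positive, median 0.07), antigen presentation (16, median -0.04), complement (18, median -0.07), the unfolded protein response (25, median 0.00 to 2 decimals), heat shock proteins (25, 20 positive, median 0.04), NRF2 targets (27, median -0.03), immediate early genes (25, median 0.02), thyroid hormone and retinoid signalling (18, median -0.04), nuclear receptors outside the clock (32, median -0.05) and ribosomal proteins (24, median -0.03). Rtp4 had the lowest p of the interferon list, at 0.26 (adjusted p = 0.366). A call missed at this depth and number of libraries does not show that a gene was equal in the groups.

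**Figure D4:**
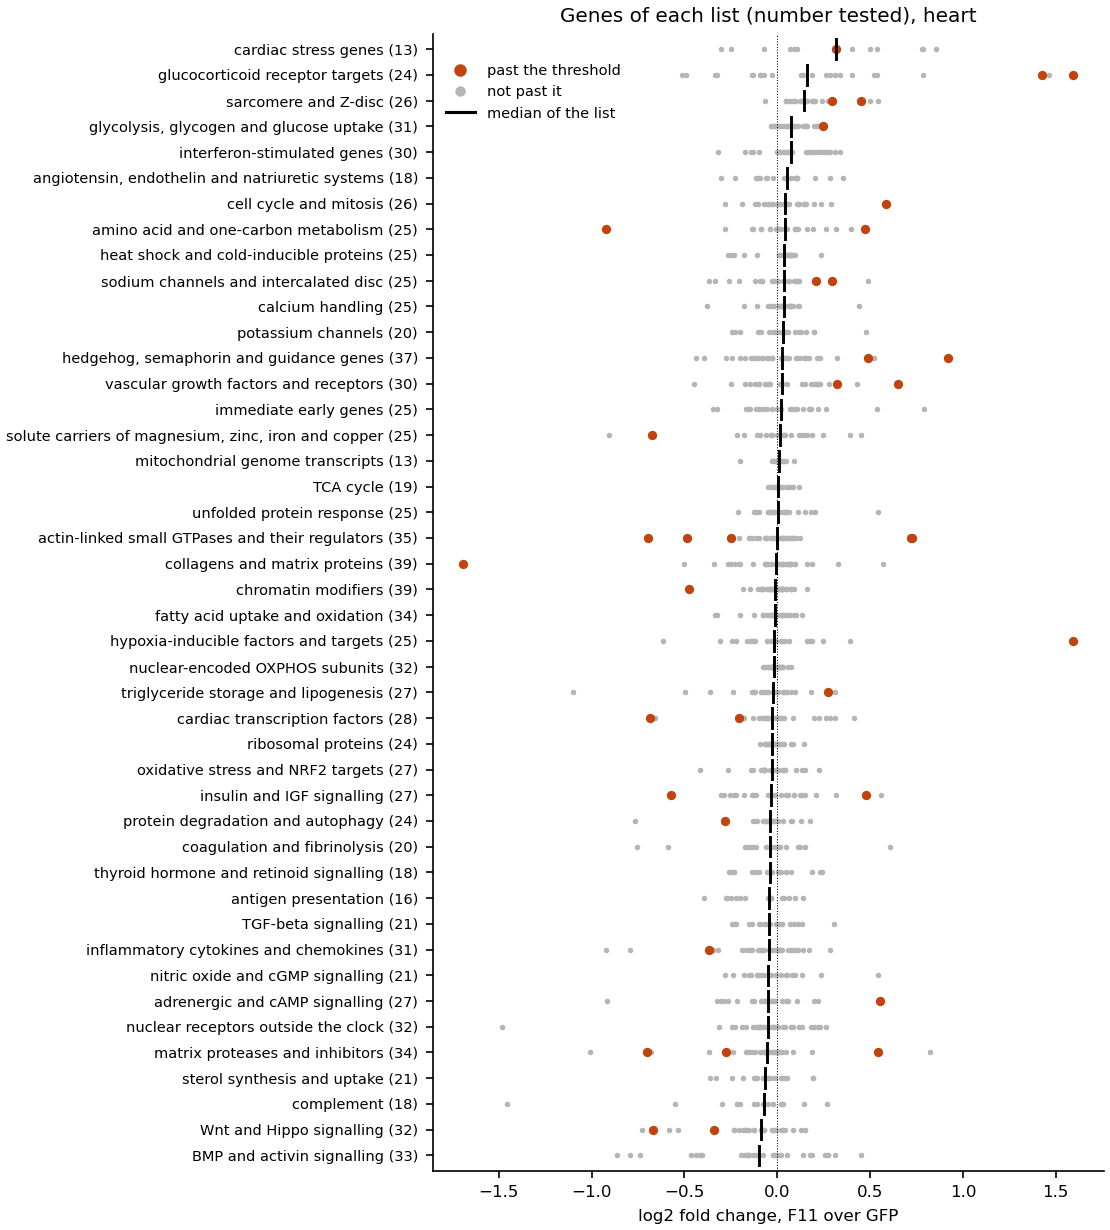
Log2 fold change of F11 over GFP for the genes of each process list outside the clock, with the number tested in brackets and lists ordered by their median (black bar). Orange points passed the adjusted threshold and grey points did not, and most medians lie within 0.1 of 0.

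Markers of other cell types were uneven between the hearts. All 10 atrial markers were negative (median -0.36), with summed levels of 499 to 4683 CPM with GFP and 877 to 4501 CPM with F11, ranges that overlapped almost wholly. All 11 mesothelial and epicardial markers were negative (median -1.14; sums 12.9 to 32.1 CPM with GFP and 7.71 to 20.9 CPM with F11). Upk3b, a surface protein of mesothelium, stood at 7.23, 2.996, 3.55, 5.57, 0.452 and 3.304 CPM in the GFP libraries and at 2.06, 1.54, 0.873, 1.88, 3.38, 0.252 and 1.47 CPM in the F11 libraries. Adipocyte markers were negative in 7 of 10 genes (median -1.28; sums 379 to 542 CPM and 364 to 581 CPM, in which Fabp4 and other genes shared with endothelium dominate). Pck1, which fat uses to make glycerol for triglycerides, stood at 11.96, 4.88, 6.95, 1.22, 1.04 and 3.24 CPM and 0.274, 0.137, 0.748, 0.6399, 1.77, 0.576 and 1.04 CPM, a log2 change of -2.70 (adjusted p = 0.0873), and the fat hormone adiponectin, Adipoq, at -1.85 (adjusted p = 0.207). Adipoq was near 0 in GFP library L8, at 0.0348 CPM. All 12 erythroid and platelet markers (median -0.21) and all 4 tested hepatocyte markers (median -1.003) were negative too. Summed levels of the hepatocyte list, genes below the filter included, were 24.15 to 227.9 CPM (median 31.96) with GFP. With F11 they were 18.52 to 30.09 CPM (median 23.52). Alb, in that list, was at 116 CPM in GFP library L2 and at most 4.14 CPM in any other heart. None of these markers passed the test.

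Other lists of cell types lay closer to 0, with medians of -0.07 for macrophages (13 of 19 negative), -0.01 for pericytes and smooth muscle (8 of 15 negative), -0.02 for lymphatic endothelium, -0.20 for lymphocytes and granulocytes (6 tested), -0.13 for Schwann cells and neurons, -0.14 for the conduction system, 0.03 for brown fat and 0.20 for skeletal muscle. For brown fat, 8 of 12 listed genes were tested, and the filter left out Ucp1, Slc27a2, Kng2 and Elovl3. The means of those genes were 2.08, 0.638, 0.158 and 0.0489 CPM with GFP. With F11 they were 0.0464, 0.00927, 0.0046 and 0.0133 CPM, so the median of 0.03 does not cover them. These genes did not follow 1 library. Ucp1 was highest in GFP library L1 (6.26 CPM). Slc27a2 and Kng2 were highest in L2 (2.14 and 0.606 CPM), the library with albumin. Slc27a2 was also at 1.18 CPM in L8, where Ucp1 was 0, and at 0.249 CPM in L1. Both means of Elovl3 lay below 0.0918 CPM, the lowest limit that 0 counts allows. No gene tested in these lists passed. Their part in the differences above was not tested beyond the following values. With the level of Myl7 as a covariate, chosen after seeing the data, 115 of the 117 genes outside the clock passed. Without L8 and L40, the libraries rich in globin, 94 of them passed, and without L1, L5 and L8, 9.

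**Figure D5:**
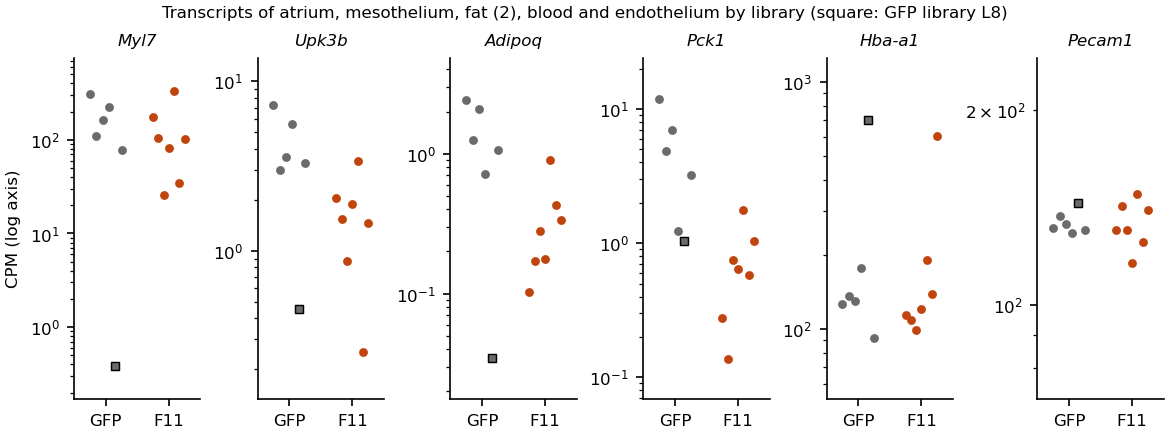
CPM on a log axis, by library, of transcripts of atrium (Myl7), mesothelium (Upk3b), fat (Adipoq and Pck1), blood (Hba-a1) and endothelium (Pecam1), with GFP libraries in grey (n = 6), F11 libraries in orange (n = 7) and L8 as a square. L8 lies far below the other libraries in Myl7, at 0.383 CPM, while Pecam1 spans a narrow range in both groups.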

How the data were processed

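Mouse heart RNA was made into libraries with a Nugen Universal Plus mRNA kit, per the labels' protocols. Reads were pseudoaligned with kallisto 0.46 on GRCm38.p6 (submitters' processing notes), and the authors deposited unscaled estimated counts for each gene, 30.8% of them not whole. Not given in the sources used here are the annotation, the strand setting and the step from transcripts to genes. Overlapping genes and close relatives are therefore uncertain. Symbols and coordinates came from the GENCODE annotation of GRCm38 (35935 of 36558 IDs). Groups came from the titles.

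Counts were rounded, filtered with filterByExpr, TMM-scaled and tested with edgeR 4.0.16 (robust quasi-likelihood, Benjamini-Hochberg over all 14684 genes) in R 4.3.3. CPM uses TMM-scaled totals, and the limit that 0 counts allows (3 counts) is 0.0918 to 0.117 CPM, for counting error only. Alternatives used DESeq2 1.42.0, limma 3.58.1 and sva 3.50.0. Identical values, to 3 decimals, were found in 168 groups of entries with a tested gene, and 2 of those groups passed the test, so 66 of the 68 higher genes are distinct. Named genes are the 15 with the lowest p in each direction outside the clock lists (mean of at least 1 CPM in a group), the members of 63 lists that passed (at most 4 a list), and otherwise the 1 or 2 with the lowest p; further genes in the text were chosen after their values were seen, and some genes are not reported here. The members and lists were chosen with earlier results of these data known. The test was tried on simulated counts first.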

Additional observations from a re-analysis of the deposited data

Results flagged for a closer look

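Of 122 groups of libraries checked for a sample apart from the rest, 13 had one; chance alone marks about 1 in 20. F11 library L33 stood above the other F11 libraries in Mid1ip1 (92 CPM, next 81.4), Rhobtb1 (228 CPM, next 177), Ncoa3 (55.8 CPM, next 51.0), the clock-driven gene Usp2 (128.5 CPM, next 113) and Wee1 (22.1 CPM, next 16.6). In the clock output gene Dbp, L31 was high among the F11 libraries (106 CPM, next 84.7) and L6 among the GFP libraries (56.1 CPM, next 44.6). L38 was high among the F11 libraries in Npas2, at 3.70 CPM. F11 library L35 was high in Hspb7, at 2224 CPM against 1954 for the next, and L36 was low in Trib1, at 17.0 CPM. Among the GFP libraries, L8 was low in Wipf3 (39.7 CPM, next 44.1), L1 was high in Myh6 (25520 CPM, next 23280), and L5 had the lowest total count, at 25.75 (in units of 1e6) against 29.11 for the next. In Mid1ip1, Rhobtb1, Ncoa3, Wipf3, Trib1 and Myh6 the library apart from its group still lay on its own side of the other group.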

How the results depend on the processing

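Against 128 genes (76 higher, 52 lower), DESeq2 called 377 (226 higher, 151 lower), limma voom with sample quality weights 196 (124 higher, 72 lower), a threshold of 0.1 gave 307 (171 higher, the rest, 0.926% of the genes tested, lower), and fitting the 29 libraries of heart and fat together 30 (13 and 17), of which 24 were among the 128. Leaving out 1 library at a time gave 87 (without L5) to 179 genes (without L40), with 51 to 119 higher and 36 to 64 lower, a depth difference of 0.371 to 1.43 (in units of 1e6) and a mitochondrial difference of -0.795 to -0.181 percentage points. Without GFP libraries L1, L5 and L8, 15 passed (9 higher, 6 lower). Other factors, filters, 1 surrogate variable and the remaining alternatives gave 127 to 167. All 128 genes kept their sign wherever tested. Outside the clock, 66 of 117 passed in all 13 fits that left out 1 library. Of 59 named genes that passed, 11 lost the call in at least 1 of those fits, and 6 passed in every setting. The signs of Gp9 (-0.62 to 0.18 with 1 library left out, 0.069 without L1, L5 and L8) and Ptcra (-0.047 to 0.25 with 1 library left out, -0.034 without L8), neither past the threshold, turned. No paired analysis was possible because the library numbers differ between the groups. What depth limits was not tested apart from the number of libraries.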

Other observations

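Of the 117 genes outside the clock lists, 81 belonged to no list, and those named here were chosen after their values were seen. Hecw2, a ubiquitin ligase gene, stood at 15.9 to 20.9 CPM (median 17.9) with GFP and 23.3 to 35.7 CPM (median 33.1) with F11 (log2 change 0.74, adjusted p = 0.00601). Rnf144b rose from 25.9 ± 2.68 CPM (SD) to 38.9 ± 5.94 CPM, while its relative Rnf144a, given above, fell. Cblb, a ubiquitin ligase that restrains receptor signalling, had a log2 change of -0.36, and the ubiquitin-conjugating enzyme gene Ube2h one of -0.23. Cipc, an inhibitor of CLOCK that the clock lists did not hold, was higher by 0.23 on the log2 scale (adjusted p = 0.0141).

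Lower genes included the chymase Mcpt4, a product of mast cells, at 0.872, 0.542, 0.703, 0.747, 0.592 and 0.934 CPM in the GFP libraries and 0.2401, 0.343, 0.187, 0.462, 0.451, 0.396 and 0.337 CPM in the F11 libraries (2.12-fold lower, adjusted p = 0.0231). The groups did not overlap, at levels below 1 CPM. Fam124b stood at 0.997 to 1.81 CPM (median 1.23) with GFP and 0.274 to 0.856 CPM (median 0.436) with F11. Col5a3, a fibrillar collagen chain, had a log2 change of -0.53 (adjusted p = 0.0141). Among higher genes, Sox7, a transcription factor of endothelium, had 0.38 (adjusted p = 0.0108), Tgm2, a protein crosslinking enzyme, 0.26 (adjusted p = 0.0221), and Smarca4, the ATPase of the BAF chromatin remodelling complex, 0.19 (adjusted p = 0.0111).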
